A study of Oryza sativa Japonica Group with 15 samples.

Results

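The comparison described here set the upper flank of the rice shoot base, taken 0.5 h after seedlings were laid on their side, against whole shoot bases taken at 0 h. It used 3 arrays of the upper flank at 0.5 h and 3 arrays of the 0 h shoot bases, 6 of the 15 arrays of the study. The plants were Oryza sativa Japonica Group seedlings of 21 day, held in darkness for 16 h beforehand, a dark period that all groups share. Those taken at 0.5 h and 6 h had been rotated by 90 degrees, and those of 0 h had not been turned. The other arrays read the lower flank 0.5 h after the turn and either flank 6 h after it, 3 for each. According to the methods, each array held RNA pooled from many plants, the flanks were cut apart on ice with a blade after freezing, and the 0 h plants were harvested whole. An upright flank cut at 0.5 h was not analysed here, so the turning, the extra time after 0 h and the cutting cannot be told apart. The labels do not say that pools came from separate plantings, so the p-values measure the spread between these pools.

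Shoots turned on their side bend upwards because cells of the lower flank elongate more than those of the upper flank. Starch-filled plastids settle in the new direction of gravity, calcium and other second messengers act within minutes, and auxin is moved towards the lower side. Auxin then alters genes of several families, among them the SAUR and Aux/IAA families, and the walls of the growing cells are loosened and rebuilt.

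The values are log2 signal on the Affymetrix rice array, less the median of the same array, so that 0 stands for the median probe set and 1 unit for a 2-fold step. Of the 57258 probe sets that are not Affymetrix controls, the 50% with the highest mean, 28629, were tested with limma over all 15 arrays. A probe set is said to have risen or fallen where its adjusted p (Benjamini-Hochberg) was under 0.05. An array reads the RNA of the whole piece of tissue, so fewer cells of a type and less RNA per cell cannot be told apart.

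Any 2 arrays correlated at 0.8908 or more over the tested probe sets. The 5 replicate 1 arrays, 1 of each group, stood apart in the DapX spike-in control, whose 5′ signal was 106.6 to 209 on them and 16.5 to 26.28 on the arrays of replicates 2 and 3. The labels name no batch. Several measures of the RNA differed between the groups. Signal at the 5′ end of the GAPDH control was 8.59%, 4.42% and 5.85% of that at the 3′ end on the upper flank arrays, against 12.7%, 11% and 11.4% at 0 h, with no overlap. For ubiquitin it was 116%, 92.7% and 98.9% in the upper flank and 132%, 128% and 124% at 0 h, also with no overlap, while actin and cyclophilin overlapped. Amplification was primed from the 3′ end of the RNA, and the part of this measure in the results below was not tested. Of 23 markers of tissue types, 1 was called, the secondary wall gene BC1. The shoot axis genes OSH1 and OSH71 were well above the array median in both groups, with OSH1 at 7.44 ± 0.14 in the upper flank and 7.28 ± 0.04 at 0 h (SD, n = 3 each). Summed linear signal in units of the array median was 277 to 311 in the upper flank and 267 to 273 at 0 h for 4 shoot axis markers, and 197 to 231 against 146 to 202 for 4 secondary wall markers. For 7 markers of dividing cells the sums were 154 to 204 against 110 to 209, for 6 of green tissue 58.0 to 87.8 against 43.4 to 74.1, and for 2 sucrose synthase genes listed as root markers 208 to 244 against 286 to 310. The lowest group mean of any marker was 0.85, for OSH43 at 0 h, and the part of the markers in the results was not tested.

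The upper flank at 0.5 h differed from 0 h at 480 probe sets, 1.68% of those tested, of which 140 rose (0.489%) and 340 fell (1.19%). All 480 had groups that did not overlap, against 19.5% of the tested probe sets. A change of at least 2-fold was found at 163 of them (0.569%), 60 higher and 103 lower. Rises ran between 0.46 and 2.55 on the log2 scale with a median of 0.92, and falls between -0.40 and -2.86 with a median of -0.78, while the median over all tested was -0.04. The count rested on the pooled spread of all 15 arrays and on single arrays. With the 6 arrays alone limma called 0 probe sets, with 3689 at an unadjusted p under 0.05 and a smallest adjusted p of 0.0579. With the replicate 1 arrays as a batch term limma called 1961 (580 higher, 1381 lower), the 480 among them. With the arrays of replicates 2 and 3 alone it called 223 (76 higher, 147 lower), of which only 118 were among the 480. Replicate 1 by itself holds 1 array a group and allows no test. Leaving out upper flank replicate 2 gave 69 calls, 67 of them among the 480, and leaving out upper flank replicate 3 gave 90, 84 of them among the 480. The count was 246 without upper flank replicate 1, 235 without 0 h replicate 2, 246 without the upper 6 h replicate 2, 273 and 297 without lower 0.5 h replicates 2 and 3, and 294 without lower 6 h replicate 2. Of the 480, 52 were called in each of the 15 fits that left out 1 array. None changed direction in any fit that tested it. As the groups of all 480 do not overlap, leaving out arrays could not have changed a direction, so this does not measure stability. Among the 78 genes named below 12 were called in all 15, and for every one of the 78 the highest adjusted p came when an upper flank array of 0.5 h was left out. Values given below for a gene with 1 array left out are that highest adjusted p. Leaving out upper flank replicate 1, 2 or 3 cost 35, 61 and 56 of the 78 calls, 0 h replicate 1, 2 or 3 cost 32, 41 and 29, and any array of the other groups cost 5 to 23.

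The share of rises depended on the scaling. Quantile scaling, which gives every array the same distribution, called 275 higher and 283 lower, 49.3% higher, whereas median centring called 29.2% higher. Log2 of signal plus 16 called 234 higher and 290 lower, 44.7% higher, and with no centring 33 were higher and 36 lower, 47.8% higher. All 480 probe sets kept their sign under quantile scaling, which moved the median of all tested probe sets by 0.05 and the 480 differences by -0.06 to 0.10. Of them 367 were still called, 134 of the 140 rises and 233 of the 340 falls. Of the 78 named genes all kept their sign and 70 their call, the exceptions being OsCCaMK, OsGT47D, OsSAPK9, OsTrx18, CIPK10, PAL, LOC9266367 and MT1B, whose adjusted p under quantile scaling ran from 0.0514 to 0.0916. Fewer of the 78 were called with no centring (19), with no filter on low values (7) and with replicates 2 and 3 alone (26). The plot of both scalings shows where the 113 probe sets no longer called lay. Without centring all 480 differences moved by about 0.06, too little to change the sign of any. Of the 480, 60 were then called.

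**Figure D1:**
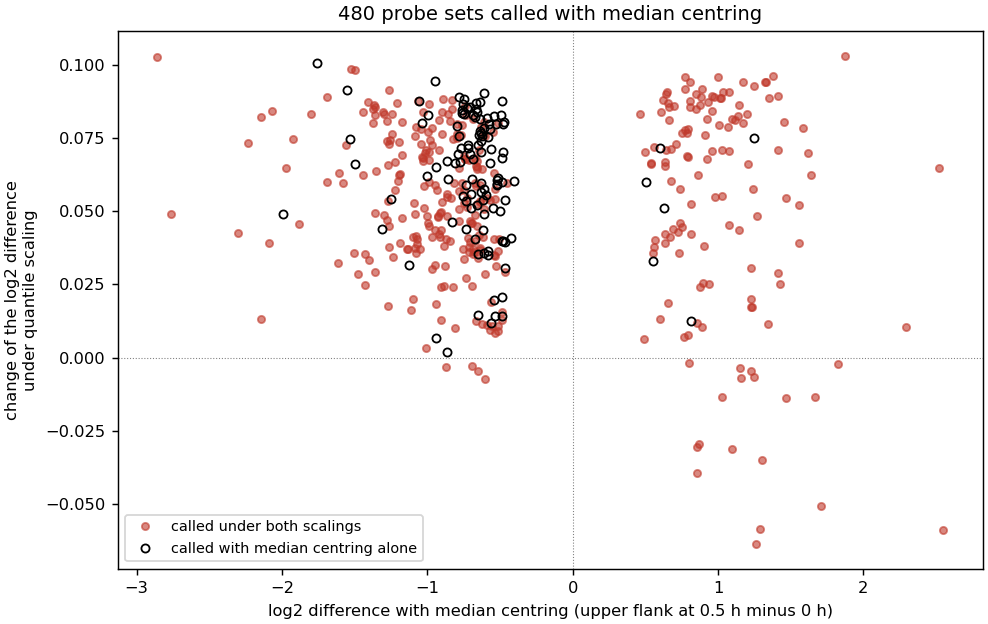
Each point is 1 of the 480 probe sets called with median centring. The x axis is the log2 difference (upper flank at 0.5 h minus 0 h) with median centring, and the y axis is how much quantile scaling changed it. The changes lie between -0.06 and 0.10, small beside differences of 0.40 and more, and the open circles, called with median centring alone, are mostly falls.

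An annotated gene or locus was found for 336 of the 480 probe sets, covering 328 genes, while 142 had none and 2 had several. Among those with none, OsAffx.25256.1.S1_at read 3.24, 2.60 and 2.53 in the upper flank and 0.71, 0.78 and 0.02 at 0 h, a 4.89-fold rise (adjusted p = 0.0247). Os.50724.1.S1_at rose 3.26-fold, Os.26511.1.S1_at fell 3.22-fold and Os.27102.1.S1_x_at fell 3.48-fold. Of these 4, only Os.26511.1.S1_at was called in all fits that left out 1 array. Without upper flank replicate 2 the adjusted p was 0.0817 for OsAffx.25256.1.S1_at and 0.129 for Os.27102.1.S1_x_at, and without upper flank replicate 3 it was 0.136 for Os.50724.1.S1_at.

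The largest rise was that of DREB1G (LOC4330306), an AP2/ERF factor of the family that acts in the response to cold. DREB1G read 2.06, 1.53 and 2.90 in the upper flank and -0.34, -0.57 and -0.25 at 0 h, a difference of 2.55 ± 0.51 (SE, adjusted p = 0.0314). All 3 upper flank arrays were above the array median and all 3 of 0 h below it, and replicate 3 was the highest. The filter on the mean of all 15 arrays kept means down to -0.149. DREB1G averaged 0.52 over them, but -0.39 at 0 h and -0.40 and -0.27 in the upper and lower flanks at 6 h. It was therefore tested only because of its 0.5 h values, and the size of its rise rests on a 0 h signal close to background. The lower flank differed from 0 h by 1.89 (adjusted p = 0.0868). Both flanks were cut apart on ice after freezing, which the methods do not describe for the 0 h plants. The part of that cutting in the rise was not tested. Of the 10 AP2/ERF genes tested DREB1G alone was called, and without upper flank replicate 3 its adjusted p was 0.13.

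**Figure D2:**
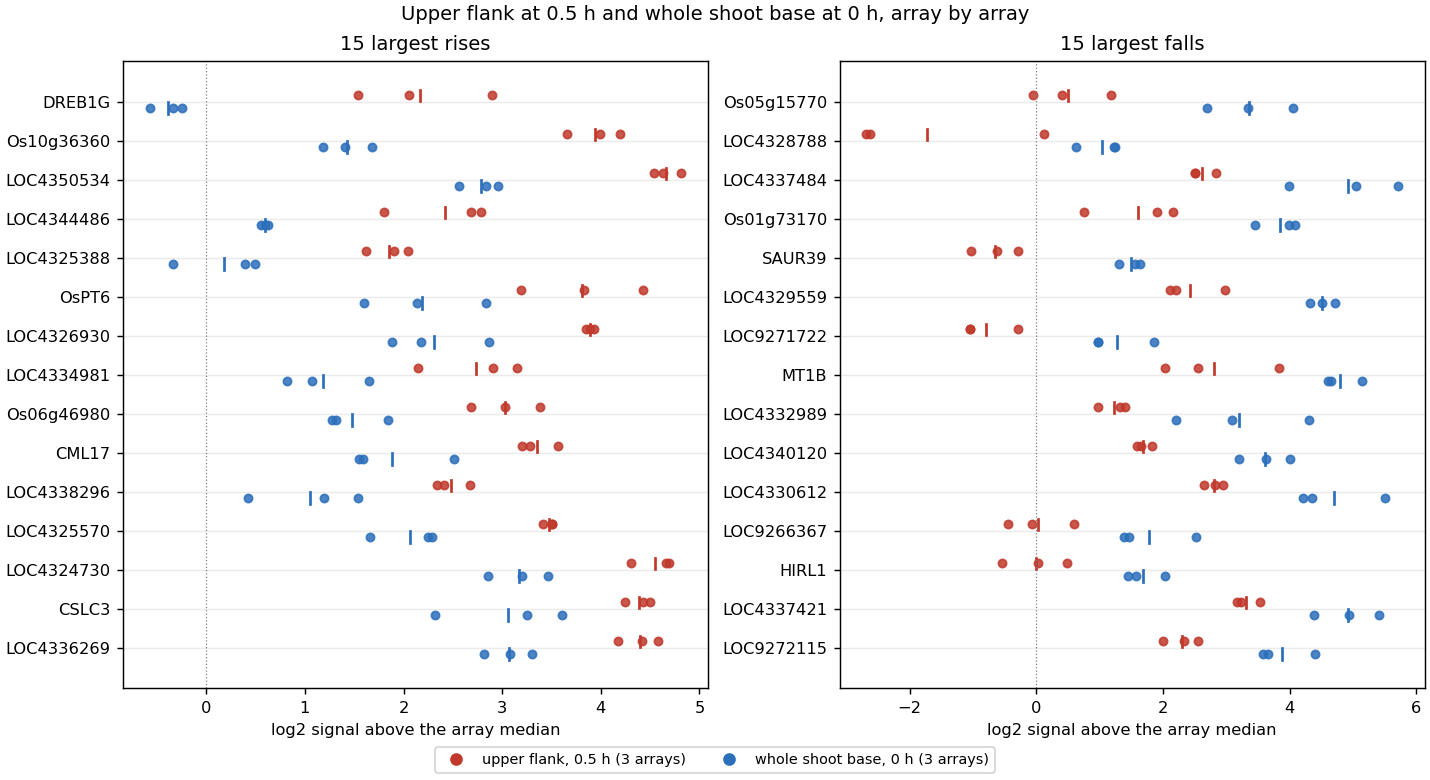
Points are single arrays and short bars are group means of the log2 signal above the array median (x axis), with the upper flank at 0.5 h drawn above 0 h for each gene. The 15 largest rises are on the left and the 15 largest falls on the right, each gene on the brightest of its called probe sets. The 30 genes were chosen to have groups that do not overlap. The spread within a group is widest for LOC4328788, where upper flank replicate 3 stands apart from the other 2.

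Os10g36360, for which the annotation used here gives no function, had the smallest adjusted p of the 78 genes. It read 3.65, 3.99 and 4.19 in the upper flank and 1.19, 1.68 and 1.41 at 0 h, a 5.74-fold rise (2.52 ± 0.21, adjusted p = 0.000339), and the lowest upper flank array was far above the highest of 0 h. LOC4350534, also without a name, rose 3.67-fold (adjusted p = 0.00336). Both were called in all 15 fits that left out 1 array. The other unnamed genes among the 15 largest rises, LOC4344486, LOC4325388, LOC4326930, LOC4334981, Os06g46980, LOC4338296, LOC4325570, LOC4324730 and LOC4336269, rose between 2.51-fold and 3.55-fold, and each lost the call without upper flank replicate 2 or 3, where their highest adjusted p ran from 0.0518 to 0.147.

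Calcium sensor genes were split. CML17, which encodes a calmodulin-like protein, read 3.20, 3.28 and 3.57 in the upper flank and 2.51, 1.55 and 1.59 at 0 h. It rose 2.76-fold (1.47 ± 0.22, adjusted p = 0.01) and kept the call in every fit that left out 1 array, with 0 h replicate 1 the closest to the upper flank. CML5, another calmodulin-like gene, rose 2.38-fold (adjusted p = 0.026), and without upper flank replicate 3 its adjusted p was 0.115. CIPK10, a kinase that binds calcineurin B-like sensors, read 0.62, 0.41 and 0.63 against 1.54, 1.25 and 1.13 and fell 1.69-fold (adjusted p = 0.0297, and 0.126 without upper flank replicate 2). Its other 3 probe sets, not called, differed by -0.71, -0.28 and -0.08. Over the 72 calcium sensor and kinase genes tested, 2 rose and 1 fell, with 33 above 0 and a median of -0.03. This list and those below count each gene once by its brightest probe set, on which 275 of 16100 genes (1.71%) were called, 96 higher (0.596%) and 179 lower (1.11%), with 46.1% above 0 and a median of -0.02. Some list members are known only from the study's tables, which were drawn from these same samples for differences between the flanks. OsCCaMK, a calcium and calmodulin dependent kinase, rose by 0.81 on 1 probe set (adjusted p = 0.0485) but differed by 0.14 on its brightest one, and its adjusted p without upper flank replicate 3 was 0.16.

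**Figure D3:**
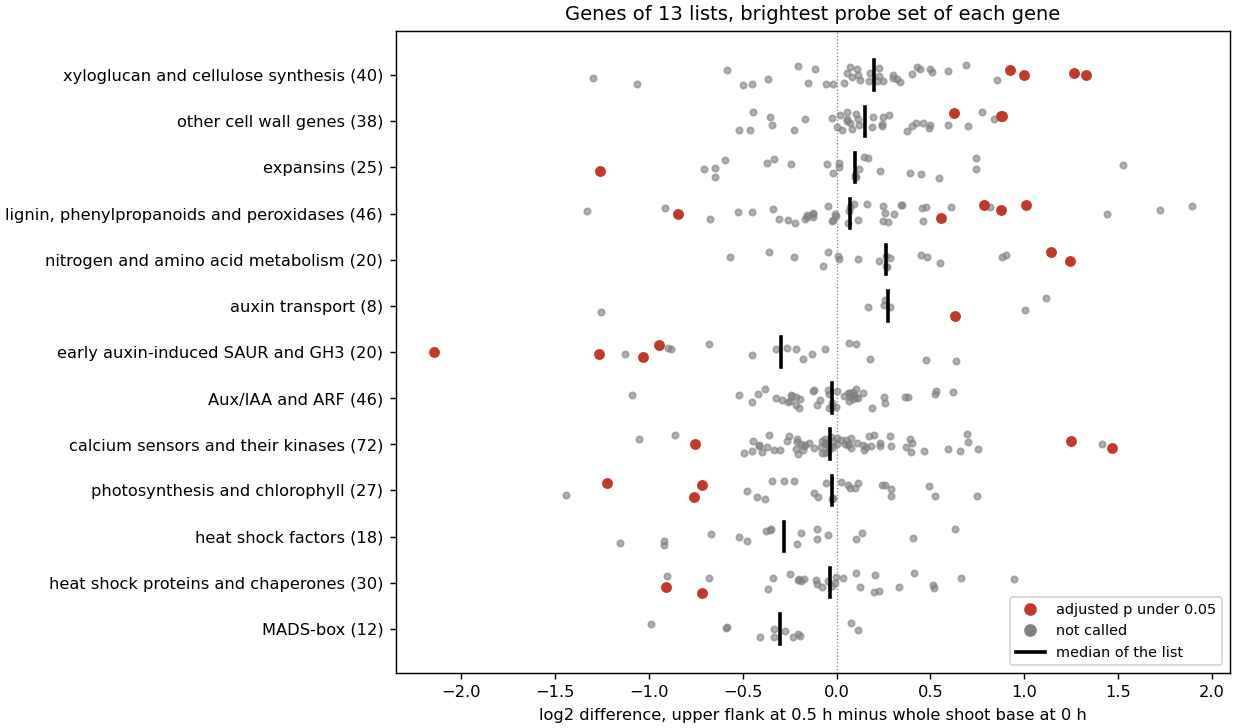
Each point is 1 gene on its brightest probe set, placed by its log2 difference between the upper flank at 0.5 h and 0 h (x axis), with the number of genes of each list in brackets and a bar at the median of the list. Red points were called. The called genes of the xyloglucan and cellulose list lie above 0 and those of the SAUR and GH3 list below 0.

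A few uptake and assimilation genes rose. OsPT6, a phosphate transporter, read 3.82, 3.19 and 4.42 in the upper flank and 2.84, 2.14 and 1.60 at 0 h, a 3.08-fold rise (1.62 ± 0.34, adjusted p = 0.0363), with the lowest upper flank array a little above the highest of 0 h. OsPT6 was the one gene called among 18 for phosphate transport and starvation, whose median was -0.03, and without upper flank replicate 3 its adjusted p was 0.144. OsAMT1;2, an ammonium transporter, read 4.12, 4.73 and 4.62 in the upper flank and 2.93, 3.58 and 3.23 at 0 h. This 2.37-fold rise (adjusted p = 0.0215) stood at an adjusted p of 0.103 without upper flank replicate 2. Os02g53130, described in the study's tables alone as a nitrate reductase, which reduces nitrate to nitrite, read 4.90, 5.17 and 4.57 against 3.71, 4.08 and 3.42 and rose 2.21-fold (adjusted p = 0.036, and 0.141 without upper flank replicate 2). For all 3 genes every upper flank array was above every 0 h array, and none of the 480 called probe sets had groups that overlapped. Of 20 nitrogen and amino acid genes, OsAMT1;2 and Os02g53130 rose and none fell, 15 were above 0 and the median was 0.26. Of the 20, 3 entered through the study's tables alone, Os02g53130 among them.

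Several cell wall genes rose. CSLC3, of the cellulose synthase-like C family whose Arabidopsis members make the glucan backbone of xyloglucan, read 4.24, 4.43 and 4.5 in the upper flank and 3.25, 3.60 and 2.32 at 0 h. It rose 2.51-fold (1.33 ± 0.31, adjusted p = 0.0496), close to the threshold, and the 3 arrays of 0 h were far more spread than those of the upper flank. Os04g51460, described in the study's tables alone as a xyloglucan endotransglucosylase/hydrolase, an enzyme that cuts and rejoins xyloglucan, read 2.52, 3.33 and 2.56 against 1.61, 1.66 and 1.35 and rose 2.40-fold (adjusted p = 0.0147). BC1, a COBRA-like protein needed for cellulose in secondary walls, read 4.40, 4.35 and 4.54 against 3.21, 3.57 and 3.53, a 2.0-fold rise (1.0 ± 0.15, adjusted p = 0.011). Its relative BC1L6 was the tightest of these genes, at 2.69, 2.71 and 2.66 in the upper flank and 1.78, 1.74 and 1.75 at 0 h (adjusted p = 0.0338). Those were the 4 genes that rose among 40 for xyloglucan and cellulose, and none of the 40 fell. In that list 29 genes were above 0 and the median was 0.20, or 0.25 under quantile scaling. Of the 40, 10 are known only from the study's tables, drawn from these same samples, so these counts are not independent evidence. The secondary wall cellulose synthases CESA4, CESA7 and CESA9 differed by 0.34, 0.17 and 0.50 and were not called (adjusted p = 0.468, 0.784 and 0.188). The adjusted p was 0.175 for CSLC3 and 0.0547 for BC1 without upper flank replicate 3, and 0.0518 for Os04g51460 and 0.121 for BC1L6 without upper flank replicate 2.

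Some glucan hydrolases and peroxidases rose as well. OsGLU10 and OsGLU14, of the endo-1,4-beta-glucanase family, each rose 1.84-fold (adjusted p = 0.0137 and 0.0495), and OsGT47D, of a glycosyltransferase family, rose 1.55-fold (adjusted p = 0.0485). They were the 3 genes called among 38 other cell wall genes, a list drawn up after values had been seen, with 30 above 0 and a median of 0.15. Of the 38, 10 entered through the study's tables alone, though none of the 3 called did. OsPMM, a phosphomannomutase that supplies mannose for sugar nucleotides, and Os05g48890, described as a fasciclin-like arabinogalactan protein, rose by 1.08 and 1.03 on 1 probe set each (adjusted p = 0.0422 and 0.0365) and by 0.24 and 0.70, not called, on their brightest. Of 14 peroxidases by description, 4 rose, namely Os03g02939, Os08g42030, Os04g56180 and Os03g02920, by 1.01, 0.88, 0.79 and 0.56 (adjusted p = 0.0252, 0.021, 0.0273 and 0.0249). All 4 had groups that did not overlap, as had all 480 called probe sets and 19.5% of those tested. Os03g02920 had the smallest rise of the 4 but tight groups, at 6.02, 5.91 and 6.14 in the upper flank and 5.51, 5.39 and 5.49 at 0 h. Of those 14, 11 were above 0, but 13 are known only from supplementary tables that the study drew from these same samples, so the count is not independent evidence. The fall of Os01g73170, given below and also described as a peroxidase, was 4.70-fold (adjusted p = 0.0137) on a probe set outside this count. Without upper flank replicate 3 the adjusted p of the 4 peroxidases that rose ran from 0.0992 to 0.119. Without upper flank replicate 2 it was 0.0581 for OsGLU10 and 0.136 for OsGT47D. Without upper flank replicate 3 it was 0.177 for OsGLU14, 0.16 for OsPMM and 0.148 for Os05g48890.

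A few single genes of the wall and of phenylpropanoid metabolism fell. In the list of 46 genes for lignin, phenylpropanoids and peroxidases, 4 rose and 1 fell, with 25 above 0 and a median of 0.07. Of the 46, 18 entered through the study's tables alone, among them the 4 that rose. Os05g15770, described as a xylanase inhibitor, showed the largest fall, with 1.18, -0.06 and 0.40 in the upper flank and 3.35, 4.04 and 2.70 at 0 h (-2.86 ± 0.57, 7.25-fold lower, adjusted p = 0.03). A second probe set of that gene differed by -1.31 (adjusted p = 0.0832). Os01g73170, described as a peroxidase, read 2.16, 0.75 and 1.91 against 4.08, 3.45 and 3.99 and fell 4.70-fold (adjusted p = 0.0137). The platform annotation ties its probe set to LOC4328841, whose other probe sets the study's tables place at another locus, Os02g14430, where they differed by 0.54 and 0.48 and were not called, so which gene it reads is uncertain. EXLA1, an expansin-like gene, read 3.38, 3.26 and 3.04 in the upper flank and 4.30, 5.21 and 3.95 at 0 h, a 2.40-fold fall (adjusted p = 0.0422). EXLA1 was the one called of 25 expansin genes, of which 15 were above 0 and the median was 0.10. LAC7, a laccase, fell 1.80-fold (adjusted p = 0.0417). PAL, phenylalanine ammonia-lyase, fell by 0.94 on 1 probe set (adjusted p = 0.0361) and differed by 0.10, 0.05, -0.16 and -0.16 on 4 others. The adjusted p was 0.126 for Os05g15770 and 0.0518 for Os01g73170 without upper flank replicate 2, and 0.159, 0.112 and 0.147 for EXLA1, LAC7 and PAL without upper flank replicate 3.

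Early auxin genes of the SAUR family were among the falls. SAUR39, which acts against auxin accumulation in rice, read -1.03, -0.28 and -0.62 in the upper flank and 1.64, 1.3 and 1.56 at 0 h, a 4.43-fold fall (-2.15 ± 0.35, adjusted p = 0.0127). All 3 upper flank arrays were below the array median and all 3 of 0 h were above it. Os09g37430, described as OsSAUR48, read 1.17, 0.77 and 1.36 against 2.39, 2.27 and 2.45 and fell 2.41-fold (-1.27 ± 0.16, adjusted p = 0.00399), a call kept in every fit that left out 1 array. Os09g37460 (OsSAUR51) read 1.33, 0.85 and 1.66 against 2.3, 2.27 and 2.38 and fell 2.04-fold (adjusted p = 0.016). Os09g37480 (OsSAUR53) read 2.31, 2.93 and 3.13 against 3.60, 3.70 and 3.90 and fell 1.92-fold (adjusted p = 0.0372). In each of these genes the 0 h arrays were tightly grouped. The upper flank arrays lay below them all, and none of the 480 called probe sets had groups that overlapped. Without upper flank replicate 3 the adjusted p of SAUR39 was 0.0547, and without upper flank replicate 2 it was 0.0571 for Os09g37460 and 0.097 for Os09g37480. OsAffx.6505.1.S1_at, which the study's tables place at both Os09g37446 and OsSAUR49 (Os09g37440), fell by 0.74 (adjusted p = 0.0189), with 1.68, 1.74 and 1.60 in the upper flank and 2.24, 2.43 and 2.57 at 0 h. Of 11 SAUR genes tested 9 were below 0 and 4 fell, with a median of -0.90 and a range of -2.15 to 0.48. All but SAUR39 are known as SAUR genes only from tables that the study drew from these same samples, so these counts are not independent evidence.

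GH3 genes, whose products join auxin to amino acids, were counted apart. Of 9 tested none was called, 6 were below 0 and the median was -0.13. The SAUR and GH3 list together had 20 genes, 4 lower and none higher, and a median of -0.29. For 10 of the 20, all of them SAUR genes, membership is known only from the study's tables. Those tables were chosen on these samples for differences between the flanks, and 3 of the 4 called genes are among the 10. No GH3 gene entered that way, so the counts of the 2 families cannot be set against each other. None of the 46 Aux/IAA and ARF genes, which encode the repressors and factors of auxin response, was called, and their median was -0.02. OsPIN5a, of the PIN family of auxin carriers, read 5.80, 5.86 and 5.90 in the upper flank and 5.24, 5.39 and 5.02 at 0 h and rose 1.55-fold (adjusted p = 0.0485, and 0.172 without upper flank replicate 3). It was the one called of 8 auxin transport genes, 7 of which were above 0. Of the 8, 3 entered through the study's tables alone. OsPIN5 and OsPIN2 differed by 1.0 and 1.12 and OsPIN4 by -1.26, none of them called (adjusted p = 0.0831, 0.158 and 0.219).

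Single genes of other hormone pathways moved. CYP734A6, a cytochrome P450 that inactivates brassinosteroids, rose 1.55-fold (adjusted p = 0.0321) among 17 brassinosteroid genes of which 14 were above 0. D3, an F-box protein of strigolactone signalling, fell 2.46-fold (adjusted p = 0.0273), LOGL3, of the family that activates cytokinins, fell 1.85-fold (adjusted p = 0.0241), and OsSAPK9, a kinase of abscisic acid signalling, fell 1.62-fold (adjusted p = 0.0464). LOGL3 was the one called of 29 cytokinin genes and OsSAPK9 of 16 abscisic acid genes. None of 31 jasmonate and wounding genes was called, with 8 above 0 and a median of -0.18, and none of 18 gibberellin or 11 ethylene genes was. For each of the 4 called genes the highest adjusted p came without upper flank replicate 3, at 0.13, 0.119, 0.115 and 0.174 in the order given.

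Light and chlorophyll genes were among those that fell. PHYA, the phytochrome A photoreceptor, was very even over the upper flank arrays, at 5.30, 5.33 and 5.32, and less so at 0 h, at 5.88, 6.07 and 6.20. It fell 1.66-fold (-0.73 ± 0.11, adjusted p = 0.01) and kept the call in all 15 fits that left out 1 array, but a brighter probe set of PHYA differed by only -0.26. LIR1, a light-regulated gene with a daily rhythm, read -0.59, 0.04 and 0.28 in the upper flank and 1.17, 1.25 and 0.97 at 0 h and fell 2.34-fold (adjusted p = 0.0247). NYC1 and NOL, which encode the chlorophyll b reductases of rice, fell 1.64-fold and 1.69-fold (adjusted p = 0.0231 and 0.018). LIR1, NYC1 and NOL were the 3 genes called of 27 for photosynthesis and chlorophyll, and the median of that list was -0.02. NYC1 and NOL act in chlorophyll breakdown rather than in the photosynthetic machinery. With upper flank replicate 2 left out the adjusted p was 0.0781 for LIR1, 0.0912 for NYC1 and 0.0836 for NOL.

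Some stress and regulatory genes also fell. The small heat shock proteins hsp17.9 and HSP17.9B fell 1.88-fold and 1.64-fold (adjusted p = 0.023 and 0.026), the 2 called of 30 heat shock proteins and chaperones. The heat shock factors HSF24 and HSFA2C fell by 1.36 and 1.24 on 1 probe set each (adjusted p = 0.0247 and 0.0122). The annotation of HSFA2C also holds the names ARD1, OsIDI1 and SIP2, and which gene its called probe set reads was not checked. Neither HSF24 nor HSFA2C was called on its brightest probe set, nor was any of the 18 heat shock factors, of which 4 were above 0 and the median was -0.28. HOX10, an HD-Zip factor, read 1.4, 0.73 and 0.96 in the upper flank and 2.38, 2.82 and 2.39 at 0 h, a 2.83-fold fall (adjusted p = 0.00386), but its brighter probe set differed by -0.25 (adjusted p = 0.4). None of 47 homeobox, 12 MADS-box or 65 zinc finger genes was called on the brightest probe set. Os02g47660, described in the study's tables alone as a bHLH factor, fell 1.95-fold (adjusted p = 0.0137). HOX10 was called in every fit that left out 1 array. With upper flank replicate 3 left out the adjusted p was 0.0991 for HSF24, 0.0531 for HSFA2C and 0.104 for HSP17.9B, and without upper flank replicate 2 it was 0.0895 for hsp17.9 and 0.0731 for Os02g47660.

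Among metal and sugar genes, MT1B, OsZIP3 and OsSUS4 fell. MT1B, a metallothionein that binds metal ions, read 3.84, 2.55 and 2.03 in the upper flank and 5.14, 4.66 and 4.60 at 0 h and fell 3.98-fold (adjusted p = 0.0485). Upper flank replicate 1 lay nearest to 0 h, and without replicate 3 the adjusted p was 0.19, the highest of any named gene. OsZIP3, of the zinc and iron transporter family, read 4.15, 4.26 and 4.14 against 5.41, 5.30 and 6.34 and fell 2.84-fold (adjusted p = 0.0212). OsSUS4, a sucrose synthase, fell 2.25-fold (adjusted p = 0.0182). OsZIP3 was the one called of 36 metal transport genes and OsSUS4 of 41 sugar and starch genes. When upper flank replicate 3 was left out the adjusted p of OsZIP3 was 0.0886 and that of OsSUS4 0.0811.

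Unnamed genes made up much of the largest falls. LOC4340120 had the smallest adjusted p of the unnamed genes among the 15 largest falls, with 1.59, 1.65 and 1.83 in the upper flank and 3.21, 4.01 and 3.62 at 0 h (3.79-fold lower, adjusted p = 0.000942). LOC4329559, LOC9271722, LOC4330612, LOC4337421 and LOC9272115 fell between 2.98-fold and 4.25-fold, and these 6 were called in all 15 fits that left out 1 array. LOC4328788 read -2.68, -2.63 and 0.12 in the upper flank and 1.25, 1.23 and 0.62 at 0 h (6.80-fold lower, adjusted p = 0.033), so that replicate 3 of each group came within 1 log2 unit of the other, and without upper flank replicate 2 its adjusted p was 0.129. LOC4337484, LOC4332989 and LOC9266367 fell between 3.39-fold and 4.94-fold, with a highest adjusted p between 0.0541 and 0.161 without upper flank replicate 2 or 3. HIRL1 fell 3.23-fold on 1 probe set (adjusted p = 0.0305, and 0.13 without upper flank replicate 3), while its other 3 were not called and the brightest of them differed by -0.26 (adjusted p = 0.549). LOC4351088, outside the 15 because its brighter called probe set differed by only -0.59 (adjusted p = 0.0372, and 0.108 without upper flank replicate 2), was chosen after its values were seen. Its dimmer probe set read 4.34, 4.09 and 4.41 in the upper flank and 6.43, 6.47 and 6.37 at 0 h (-2.15 ± 0.14, 4.43-fold lower), with the smallest adjusted p of the comparison (6.2e-05), and was called in all 15 fits that left out 1 array.

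Other lists gave few calls. Among 39 ribosomal protein and translation genes Os01g59730 and Os02g32760 rose, by 0.96 and 0.74 (adjusted p = 0.0375 and 0.02). Both are among the 9 of the 39 that entered through the study's tables alone, drawn from these same samples. Among 72 cell cycle and replication genes ORC3, a subunit of the origin recognition complex, rose 1.87-fold (adjusted p = 0.0495) and SMR1 fell 1.93-fold (adjusted p = 0.0473), with 48 above 0 and a median of 0.11. Os11g01610, described in the study's tables alone as a prenylated Rab receptor, rose 1.88-fold (adjusted p = 0.0147) and GSTU1, a glutathione S-transferase, 1.56-fold (adjusted p = 0.0483). OsTIP1;1, a water channel of the vacuole, fell by 0.69 and OsTrx18, a thioredoxin, by 0.72 on 1 probe set each (adjusted p = 0.036 and 0.0199), against -0.33 and -0.43, not called, on their brightest. Of 42 lists, 24 had a called gene on the brightest probe set. The median of 14 lists was above 0. Each of these 8 genes lost the call without upper flank replicate 2 and without replicate 3, and their highest adjusted p ran from 0.0778 to 0.183.

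Probe sets of a gene often differed in size. Of the called genes 88 had several tested probe sets. Beside genes called lower stood 89 uncalled probe sets, 71 of them below 0, with a median of -0.35 against -0.76 for the called ones. Beside genes called higher stood 22, 18 of them above 0, with a median of 0.36 against 0.81. Of these, 53 and 13 were brighter than the called probe set.

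The 0.5 h values of the upper flank can be set beside the other flank and the later time, in comparisons that share the same 0 h arrays. CML17 differed from 0 h by 1.47 in the upper flank and 1.36 in the lower one at 0.5 h, and by -1.31 and -1.15 in the upper and lower flanks at 6 h. OsPT6 gave 1.62, 1.71, -1.66 and -1.29 in that order, and BC1 gave 1.0, 0.92, -1.09 and -1.23. For all 3 genes both flanks were above 0 h at 0.5 h and below it at 6 h. Os02g53130 gave 1.14, 0.83, -2.18 and -0.08, with only the upper flank well below 0 h at 6 h. DREB1G gave 2.55, 1.89, -0.01 and 0.12, close to the 0 h level at 6 h.

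LIR1, EXLA1, SAUR39 and CIPK10 stood below 0 h at 0.5 h and above it at 6 h. LIR1 differed by -1.22 in the upper flank and -0.94 in the lower one at 0.5 h, and by 3.99 and 3.84 at 6 h. EXLA1 gave -1.26, -1.06, 2.61 and 2.25, SAUR39 gave -2.15, -0.98, 2.04 and 1.75, and CIPK10 gave -0.76, -0.74, 3.84 and 3.80. No upright plants of 6 h were analysed here, so time of day and turning cannot be told apart at 6 h.

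At 2 probe sets with SAUR loci the flanks differed at 0.5 h. Os09g37430 differed from 0 h by -1.27 in the upper flank and 1.04 in the lower one at 0.5 h, and by 0.29 and 3.91 at 6 h. Its lower flank read 3.25, 3.48 and 3.51 at 0.5 h and its upper flank 1.17, 0.77 and 1.36, a lower minus upper difference of 2.31 (adjusted p = 0.000109), with no overlap. Os09g37460 gave -1.03 and 0.30 against 0 h, with a lower minus upper difference of 1.33 that missed the threshold (adjusted p = 0.0518). Os09g37480 gave -0.94 and -0.22 against 0 h, with a lower minus upper difference of 0.73 (adjusted p = 0.992). In the same fit 2 of the 28629 tested probe sets (0.00699%) differed between the flanks at 0.5 h, and both, Os09g37430 and OsAffx.6505.1.S1_at, were among the 480. That contrast shares the upper flank arrays with the main comparison. At an unadjusted p under 0.05, 62 of the 480 and 916 of all tested differed between the flanks. For the other members a difference between upper and lower flank was not shown, which does not make them alike.

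**Figure D4:**
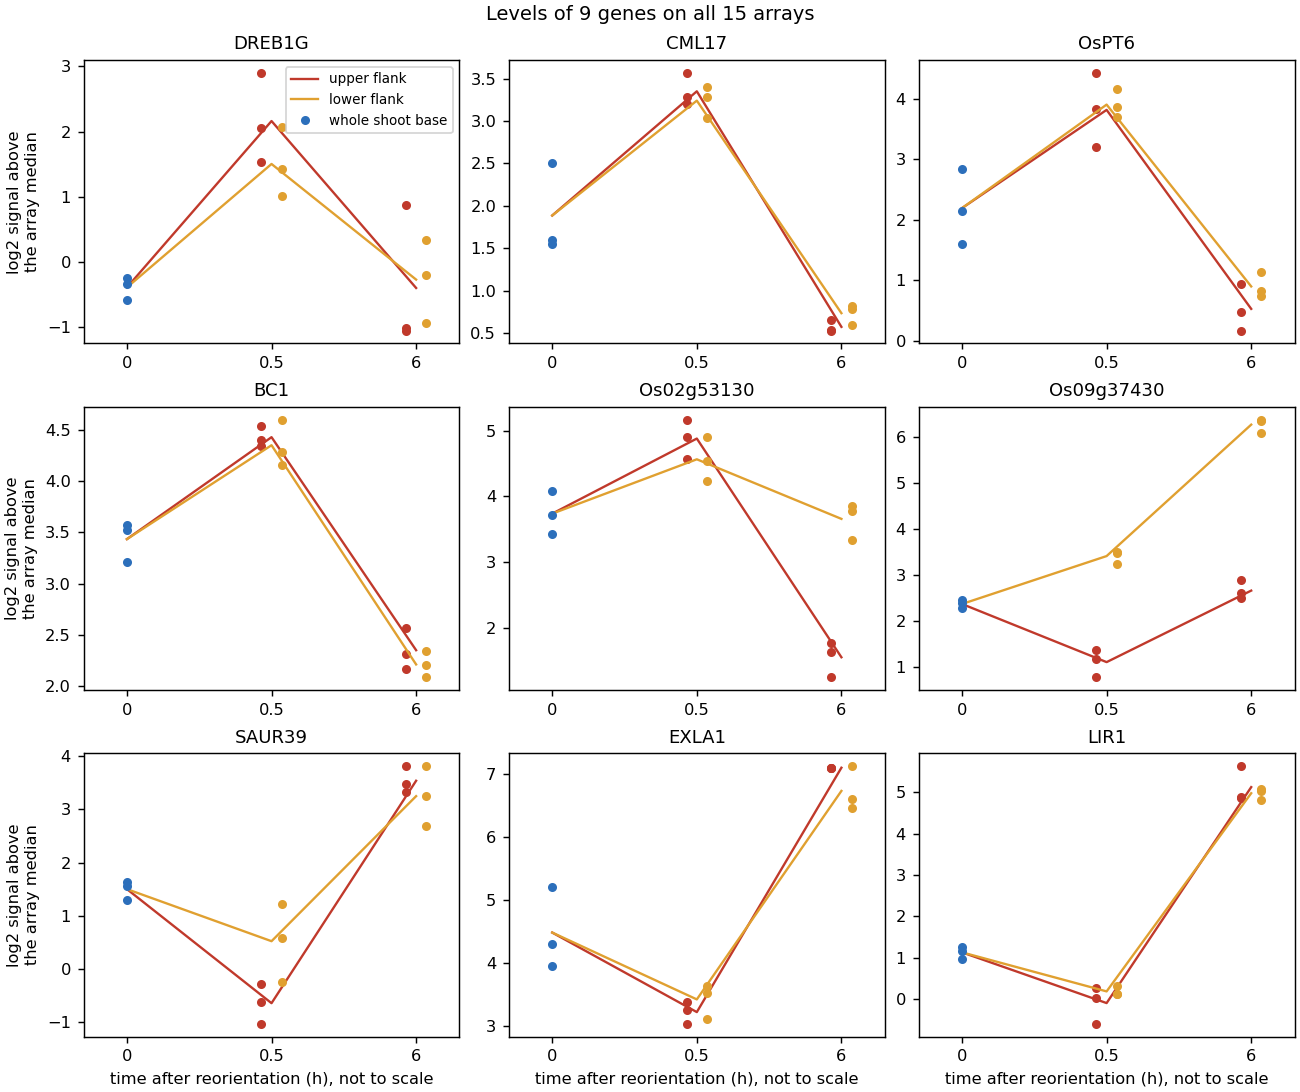
Points are single arrays, 3 per group, and lines join group means of the log2 signal above the array median (y axis) at 0, 0.5 and 6 h (x axis, not to scale), with the upper flank in red, the lower flank in orange and the whole shoot base of 0 h in blue. Os09g37430 lies below 0 h in the upper flank and above it in the lower one at 0.5 h, whereas LIR1 and EXLA1 dip in both flanks and exceed 0 h at 6 h.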

How the data were processed

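RNA of 15 pooled samples was amplified over 2 rounds, biotin-labelled and hybridised to Affymetrix rice arrays. The authors computed signal intensity per probe set (GCOS with the MAS5 algorithm) and deposited these intensities on a linear scale; the scaling target was not stated in the sources used here. The labels name Trizol and darkness, the methods a column kit and dim green light. Here the log2 intensity was centred on each array's median, 123 control probe sets were left out, the brighter 50% of the rest were kept, and limma 3.58.1 (R 4.3.3) was fitted with 1 mean per group over 15 arrays (residual df 10, prior df 2.67), after a check on simulated data. The number of arrays limits the precision. Genes were named from the platform table, then the study's tables for a locus. The named genes, each on the brightest of its called probe sets, were the 15 largest rises and 15 largest falls among called probe sets with 1 gene, no overlap and a higher group mean of at least 1, plus the called members of the gene lists, 78 in all; CESA4, CESA7, CESA9, OsPIN5, OsPIN2, OsPIN4 and LOC4351088 were added after their values were seen. The members and lists were chosen with earlier results of these data known. Alternatives were quantile scaling, no centring, no filter on low values, only the brightest 25%, 6 arrays alone, an intensity trend, log2 of signal plus 16, a replicate block and each array left out; replicates 2 and 3 alone, the brightest probe set of each gene and a batch term for replicate 1 were added after seeing the data. Deviations of same-numbered upper flank and 0 h arrays correlated at 0.419, 0.0634 and 0.125, and those of unlike numbers at -0.343 to 0.227. Not every same-numbered value was above 0.1, so the numbers were not taken to pair the samples. This does not show that the samples were unpaired, and the other groups were not checked. Sequences and promoter motifs were not analysed here.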

Additional observations from a re-analysis of the deposited data

Results flagged for a closer look

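At 2 probe sets the flanks at 0.5 h differed by the test of that difference, lower minus upper, in limma over 15 arrays. Os09g37430 differed by 2.31 (adjusted p = 0.000109) and OsAffx.6505.1.S1_at by 1.59 (adjusted p = 0.000352). OsAffx.6505.1.S1_at read 3.16, 3.24 and 3.42 in the lower flank and 1.68, 1.74 and 1.60 in the upper flank, and its fall against 0 h lost the call without 0 h replicate 2 or 3 or any 1 upper flank array of 0.5 h, with a highest adjusted p of 0.0927 without upper flank replicate 3.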

How the results depend on the processing

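None of the 78 named genes or the 480 probe sets changed direction in an alternative that tested it. With groups that do not overlap, fits that left out arrays could not have changed a direction. Over 1912 values of named genes under alternatives, 1241 kept the call and 671 lost it, and 1039 of 1050 list medians moved by less than the replicate spread. Quantile scaling called 275 higher and log2 of signal plus 16 called 234. With no centring 69 were called (33 higher, 36 lower, 60 at least 2-fold), and with no filter on low values 37 (12, 25 and 36). Only the brightest 25% of probe sets gave 95 calls of at least 2-fold, and the 6 arrays alone gave 0 calls of any kind. A replicate block gave 1715 calls (518 higher, 1197 lower, 283 at least 2-fold), the 480 among them; deviations of equal numbers did not all correlate above 0.1, though the replicate 1 arrays stood apart. Chosen after seeing the data, the arrays of replicates 2 and 3 alone gave 223 calls (76 higher, 147 lower), 118 of them among the 480. Also chosen then, a batch term for replicate 1 gave 1961 (580 higher, 1381 lower, 308 at least 2-fold), and the brightest probe set of each gene 275 (179 lower, 88 at least 2-fold). Leaving out 1 array gave 69 to 516 calls, 13 to 145 higher, 56 to 371 lower and 50 to 190 at least 2-fold. Of the 480, 2 differed between the flanks at 0.5 h, against 0 in the brightest 25%, where neither probe set was tested, 0 with replicates 2 and 3 alone, and 2 to 4 with 1 array left out. The cause of the other shifts was not tested. Signal close to background limits the 25 members with a group mean below the array median.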
